A study of Mus musculus with 63 samples.

Results

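miR-150 and miR-342 are a pair of mouse miRNAs, each cut from 1 hairpin, and both arms of each hairpin were counted, which gave 4 mature miRNAs: mmu-miR-150-5p, mmu-miR-150-3p, mmu-miR-342-3p and mmu-miR-342-5p. They were taken by name from a small RNA-Seq count table of 2110 genomic loci, where each of the 4 has 1 locus. The table holds 63 libraries of 4 cell populations sorted from the kidney cortex of 16 male C57BL/6 mice aged 8 to 12 weeks. Endothelial cells (ECs) were CD45- CD31+, macrophages (Macs) CD45+ F4/80hi, proximal tubular (PT) cells CD45- CD31- LTL+, and PDGFRβ+ stromal cells CD45- CD31-. The mice were sham operated, had a unilateral ureteric obstruction for 2 days (UUO-2) or 7 days (UUO-7), or had the obstruction reversed after 7 days and were studied 14 days later (R-UUO). Each group had 4 mice, and the 4 populations of 1 mouse share its number. PDGFRβ+ cells at UUO-7 had 3 libraries, since 1 that stood apart was removed by the authors and not analysed here. All mice were perfused with PBS, and lymphocytes were not sorted.

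A miRNA guides a silencing complex to messenger RNAs that pair with its seed, the bases 2 to 8 from its 5′ end. miR-150 is known for its high level in mature B and T lymphocytes, where it represses the transcription factor Myb, and it is also carried in blood. miR-342 lies in an intron of Evl, a gene for an actin regulator, and is known from haematopoietic cells. Both are therefore often read as leukocyte miRNAs, and the comparison of sorted cells asked in which kidney cells each was found and how it changed with injury and repair.

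The mature sequences and the Mir342 hairpin are shown because 2 arms of 1 hairpin share a transcript but not a seed, so that their levels can be compared within a hairpin. They are from RefSeq for GRCm38.p6, where 3 of the 4 members matched, and capitals mark the seed in each mature sequence. In the hairpin, capitals mark the mature arms at bases 19 to 40 (mmu-miR-342-5p) and 61 to 83 (mmu-miR-342-3p).
mmu-miR-150-3p: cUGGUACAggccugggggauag
mmu-miR-342-5p: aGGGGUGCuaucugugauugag
mmu-miR-342-3p: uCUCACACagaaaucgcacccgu
Mir342 hairpin: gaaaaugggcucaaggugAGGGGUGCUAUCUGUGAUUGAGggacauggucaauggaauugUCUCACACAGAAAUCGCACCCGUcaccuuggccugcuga
Among the 1679 mature names of that table, each of these 3 seeds belonged to 1 miRNA, the member itself. In GRCm38, mmu-miR-150-5p lies at chr7:45121762-45121783 and mmu-miR-150-3p at chr7:45121798-45121819, both on the plus strand in Mir150, which lies within no other annotated gene. mmu-miR-342-5p lies at chr12:108658638-108658659 and mmu-miR-342-3p at chr12:108658680-108658702, on the plus strand in Mir342. All 5 Evl transcripts that span Mir342 are on the same strand and have it in an intron. The nearest other counted loci were mmu-miR-5121, 5142 bases after mmu-miR-150-5p, and mmu-miR-345-5p, 178287 bases after mmu-miR-342-3p.

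EC libraries held 2792366 to 10819385 counts, those of Macs 1106651 to 6912556, those of PT cells 616565 to 5093294 and those of PDGFRβ+ cells 1905053 to 8769219. The endothelial marker miR-126a (2 of 2 arms detected in every library) summed to 93098 to 173193 CPM (library-scaled counts per 1e6) in ECs and at most 3387 in any Mac library. The 5 leukocyte marker arms (miR-142a, miR-223 and miR-155) summed to 14969 to 42104 CPM in Macs and at most 273 in any EC library. No endothelial or leukocyte marker arm was at 0 throughout a population. In bulk samples like these, a lower share of cells that hold a miRNA and less of it per cell cannot be told apart.

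mmu-miR-150-5p was an EC miRNA in the sorted kidney. Scaled over all 63 libraries, its level was 2792 ± 691 CPM in ECs (SD, n = 16), 349 ± 206 CPM in Macs, 56.4 ± 37.4 CPM in PT cells and 28.1 ± 15.3 CPM in PDGFRβ+ cells (n = 15). The lowest EC library, at 1058 CPM, lay above the highest Mac library, at 744 CPM. Scaled by library size alone, ECs and Macs overlapped. The lowest EC library was then at 813 CPM (UUO-2 mouse 1) and the highest Mac library at 1346 CPM (UUO-7 mouse 3). Every step in this order passed the test (edgeR's quasi-likelihood test with Benjamini-Hochberg adjustment, FDR below 0.05 and a fold change above 1.5, a call). ECs were above Macs by a log2 of 3.18 ± 0.21 (SE, FDR 6.1e-20), Macs above PT cells by 2.55 ± 0.22 (FDR 7.3e-16), and PT cells above PDGFRβ+ cells by 0.91 ± 0.22 (FDR 2.5e-04). The part of lymphocyte RNA in the EC level was not tested. Against the mean of the other 3 populations, ECs were higher by 5.18 ± 0.16 (FDR 6.9e-36) and Macs by 0.94 ± 0.16 (FDR 3.8e-07), while PT cells were lower by a log2 change of -2.46 ± 0.20 (FDR 8.1e-17) and PDGFRβ+ cells by -3.67 ± 0.22 (FDR 7.4e-22).

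mmu-miR-150-3p, the rare arm, was also highest in ECs and next in Macs, at a much lower level. It had 751 counts in ECs, with at least 1 in 16 of 16 libraries, 137 in Macs (13 of 16 libraries), 3 in PT cells (3 of 16) and 3 in PDGFRβ+ cells (2 of 15). It was higher in ECs than in Macs by a log2 of 2.81 ± 0.34 (FDR 1.4e-09), or 3.70 without sham mouse 1, whose Mac library held all 11 counts of the sham Macs. Per pooled count, ECs exceeded Macs 2.58-fold (95% exact interval 2.15 to 3.12), PT cells 54.7-fold (18.6 to 266) and PDGFRβ+ cells 153-fold (52.1 to 742). These pooled ratios use library totals alone, without the scaling behind the log2 values above, and their intervals cover counting error only. With counts this low, its level in PT and PDGFRβ+ cells could not be followed across conditions, and it did not pass the low-count filter there.

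**Figure D1:**
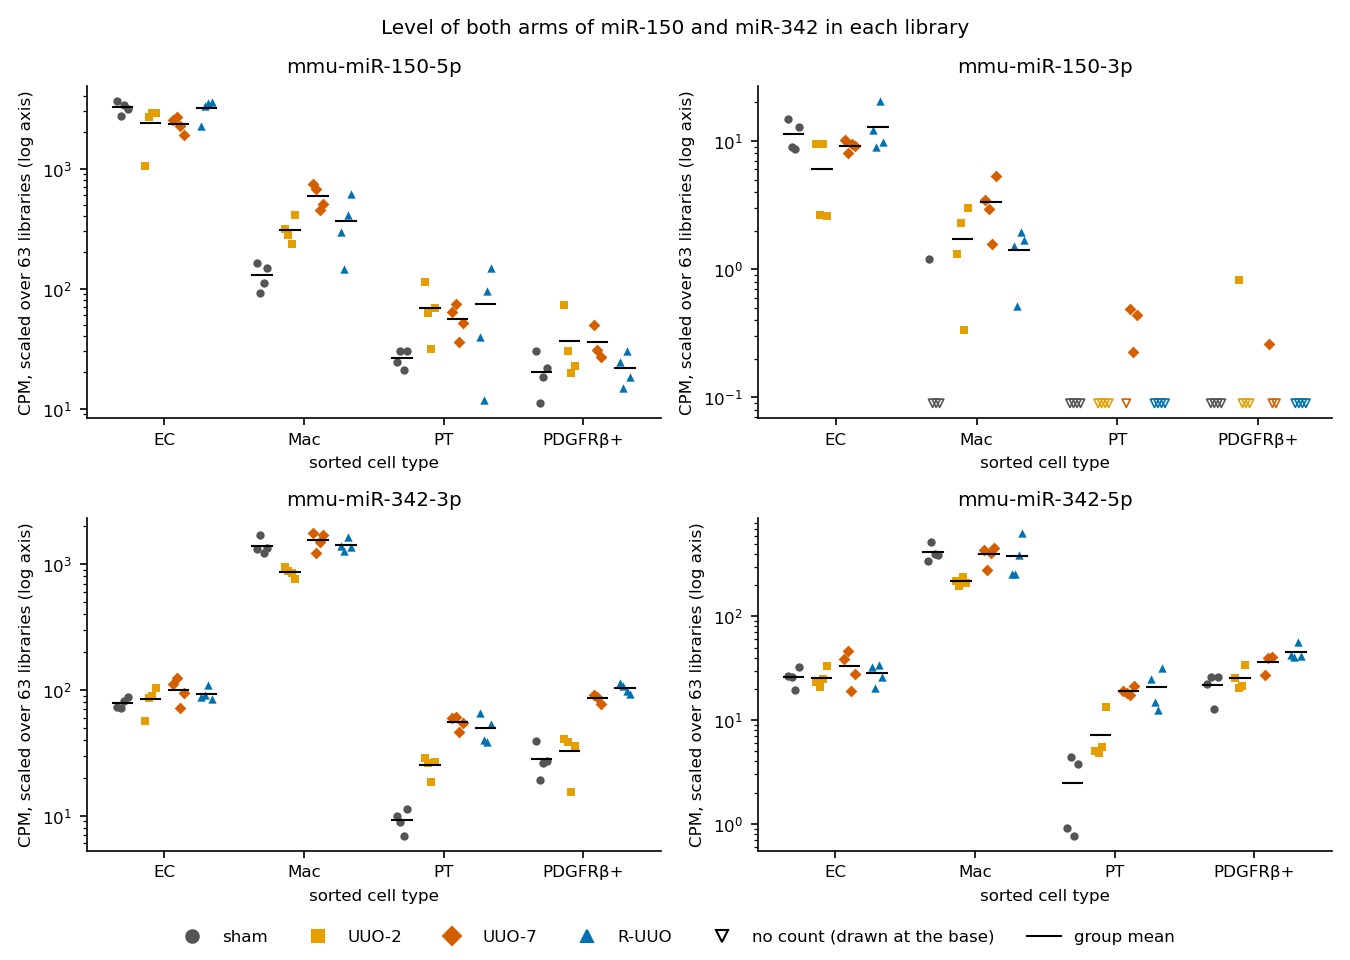
Level of each member in every library, as CPM scaled over 63 libraries on a log axis, by sorted cell type (x axis) and condition (colour and symbol), with a bar at each group mean and open triangles at the base for libraries with no count. Both miR-150 arms are highest in ECs, and both miR-342 arms in Macs, where the lowest library of mmu-miR-342-3p is at 766 CPM.

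Both arms of miR-342 were Mac miRNAs. On the scale over all libraries, mmu-miR-342-3p was at 1304 ± 315 CPM (SD, n = 16) in Macs, 88.9 ± 16.9 in ECs, 60.5 ± 35.1 in PDGFRβ+ cells (n = 15) and 34.7 ± 20.3 in PT cells. The lowest Mac library, at 766 CPM, was above the highest library of any other population, an EC library at 124 CPM. ECs lay below Macs, with an EC minus Mac log2 difference of -3.85 ± 0.11 (FDR 7.4e-37). ECs in turn exceeded PDGFRβ+ cells by 0.73 ± 0.10 (FDR 1.8e-08), and PT minus PDGFRβ+ was -0.92 ± 0.11 (FDR 2.1e-10). Averaged over all conditions, each neighbour in the order thus differed. Scaled by library size alone, both of these smaller steps kept their sign but fell under the fold threshold, at 0.48 and -0.39. The step between ECs and PDGFRβ+ cells did not hold in every condition. Sham means were 78.5 CPM in ECs and 28.0 CPM in PDGFRβ+ cells, and those of UUO-7 mice were 100 and 85.5 CPM. After reversal the PDGFRβ+ mean, at 102 CPM, lay above the EC mean of 92.9 CPM.

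mmu-miR-342-5p was at 353 ± 124 CPM (SD, n = 16) in Macs, 31.8 ± 11.5 in PDGFRβ+ cells (n = 15), 28.3 ± 7.59 in ECs and 12.4 ± 9.30 in PT cells, on the same scale. EC minus Mac was -3.61 ± 0.15 (FDR 5.3e-29). ECs and PDGFRβ+ cells were not told apart for this arm (EC minus PDGFRβ+ -0.13 ± 0.15, FDR 0.49, 95% interval -0.42 to 0.15), while PT cells lay below PDGFRβ+ cells with a log2 difference of -1.76 ± 0.17 (FDR 1.9e-13).

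The counts of called members stood beside a high background, since most loci differed between sorted populations. Between ECs and Macs, 4 of 4 members were called, where 64.7% of the 671 loci tested were. For the 3 members other than mmu-miR-150-3p, the calls were 3 of 3 for ECs against PT cells (all loci 68.6%), 2 of 3 for ECs against PDGFRβ+ cells (40.2%), 3 of 3 for Macs against PT cells (62.3%), 3 of 3 for Macs against PDGFRβ+ cells (68.7%) and 3 of 3 for PT against PDGFRβ+ cells (63.2%). Against the mean of the other 3 populations, 2 of 3 were called in ECs (52.5%), 3 of 3 in Macs (57.2%), 3 of 3 in PT cells (59.8%) and 2 of 3 in PDGFRβ+ cells (51.0%). The size of the Mac difference was 4.64 ± 0.08 for mmu-miR-342-3p (FDR 5.0e-49) and 4.10 ± 0.11 for mmu-miR-342-5p (FDR 4.2e-39). In ECs the same contrast was -0.49 ± 0.09 for mmu-miR-342-3p, under the fold threshold, and -0.70 ± 0.13 for mmu-miR-342-5p (FDR 2.0e-06), which fell under that threshold without UUO-2 mouse 4 (-0.56) or UUO-7 mouse 4 (-0.56). The values for PT cells were -2.69 ± 0.10 and -2.88 ± 0.16. For PDGFRβ+ cells they were -1.47 ± 0.09 and -0.52 ± 0.13, the last under the fold threshold.

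The ratio of mmu-miR-150-5p to mmu-miR-342-3p inside a library needs no scaling between libraries, and it set the populations apart in the same way. Its log2 was on average 4.94 in ECs, 0.71 in PT cells, -0.98 in PDGFRβ+ cells and -2.12 in Macs. Within a mouse, ECs exceeded Macs by 7.06 ± 1.28 (SD, 16 of 16 mice), with p = 3.05e-05 in the exact sign-flip permutation test, the smallest it can give, and p = 1.8e-04 adjusted over 18 tests. The other 5 pairs of populations also differed (adjusted p of at most 0.0101 by the same exact test). The one with an exception among the mice was Macs against PDGFRβ+ cells, at -1.22 ± 1.40, where 1 of 15 mice went the other way.

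The dominant arm was 5p for miR-150 and 3p for miR-342 in each population. mmu-miR-150-5p made up 99.7% of the counts of its hairpin in ECs and 99.5% in Macs, and the log2 ratio of its arms differed between ECs and Macs by 0.13 ± 1.49 (SD, n = 16, permutation p = 0.78 after adjustment). For miR-342 the 3p arm was the more abundant, and the 5p arm held 20.4% of the pooled counts in Macs, 23.9% in ECs, 26.4% in PT cells and 34.1% in PDGFRβ+ cells. The log2 ratio of mmu-miR-342-3p over mmu-miR-342-5p was lower in PDGFRβ+ cells, at 0.74, than in ECs by 0.94 ± 0.65 (14 of 15 mice, adjusted permutation p = 4.7e-04), Macs by 1.17 ± 0.65 (14 of 15, 3.7e-04) and PT cells by 0.92 ± 0.85 (12 of 15, 0.0034). Between ECs and Macs it differed by -0.26 ± 0.42 (n = 16, permutation p = 0.039 after adjustment), and this call was lost when any 1 of 9 mice was left out (sham mouse 1, 2 or 4, UUO-2 mouse 1 or 4, UUO-7 mouse 2 or 3, R-UUO mouse 1 or 4), at -0.26 to -0.20.

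**Figure D2:**
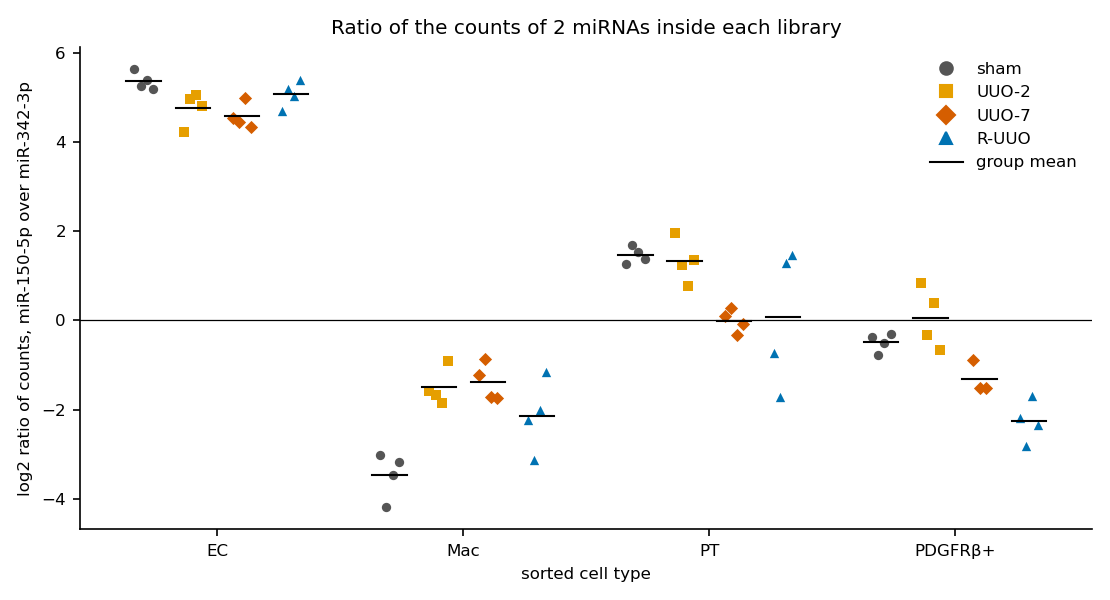
Log2 ratio of the counts of mmu-miR-150-5p over mmu-miR-342-3p in each library (y axis) by sorted cell type and condition, with a bar at each group mean. ECs average 4.94 and Macs -2.12, and the UUO-7 libraries do not overlap the sham libraries in any of the 4 cell types, being higher in Macs and lower in the other populations.

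With obstruction, miR-150 rose in Macs and was not called in ECs, where it was most abundant. Levels in the comparisons of conditions are CPM scaled within 1 cell type. Among Macs, mmu-miR-150-5p was at 256, 144.7, 180 and 217 CPM in sham mice 1 to 4, and at 527, 501, 407 and 763 CPM in UUO-2 mice 1 to 4. It reached 1302, 1186, 846 and 774 CPM in UUO-7 mice 2 to 5 and was at 488, 233, 627 and 1046 CPM in R-UUO mice 1, 2, 4 and 5. All libraries at UUO-2 and UUO-7 lay above all sham libraries, while R-UUO mouse 2 fell within the sham range. Against sham it rose by a log2 of 1.46 ± 0.34 (edgeR, FDR 0.0030) at UUO-2, 2.36 ± 0.35 at UUO-7 (FDR 2.8e-05) and 1.57 ± 0.34 in R-UUO (FDR 0.0013). The R-UUO value was 1.04 (FDR 0.010) without R-UUO mouse 5.

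mmu-miR-150-3p in Macs had 11, 0, 0 and 0 counts in sham, 10, 17, 3 and 17 counts in the UUO-2 mice, 11, 18, 6 and 22 in the UUO-7 mice and 7, 5, 7 and 3 in the R-UUO mice. Only sham mouse 1 overlapped the injured groups. It was called at UUO-7, at 3.02 ± 0.84 (FDR 0.0064), and not at UUO-2 (2.14 ± 0.85, FDR 0.062, or 0.037 without UUO-2 mouse 3) or in R-UUO (1.61 ± 0.93, FDR 0.19). It passed the low-count filter in Macs through the injured libraries, so that it had to differ, and without sham mouse 1 the remaining sham libraries were all at 0 and the fitted values of 6.24 (UUO-2), 7.13 (UUO-7) and 5.75 (R-UUO) are no bound.

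In ECs, mmu-miR-150-5p was at 2195, 1788, 2110 and 1965 CPM in sham mice 1 to 4 and at 786, 1962, 1866 and 1922 CPM in UUO-2 mice 1 to 4. It was at 1792, 1890, 1477 and 1195 CPM in UUO-7 mice 2 to 5 and at 1608, 1996, 2471 and 2408 CPM in R-UUO mice 1, 2, 4 and 5. The groups overlapped, apart from UUO-2 mouse 1, which lay below all other EC libraries. The changes against sham were -0.30 ± 0.23 (FDR 0.59), -0.34 ± 0.23 (FDR 0.35, 95% interval -0.80 to 0.11) and 0.07 ± 0.23 (FDR 0.87).

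mmu-miR-150-5p moved less evenly in the other populations. In PT cells it was at 29.1, 34.5, 24.4 and 35.8 CPM in sham mice, 131, 71.7, 36.1 and 76.6 CPM at UUO-2 and 68.3, 83.2, 40.5 and 55.4 CPM at UUO-7, so that every obstructed library lay above every sham library. The R-UUO libraries, at 48.0, 13.1, 112 and 167 CPM, lay on both sides of the sham range. It was called in R-UUO, at 1.45 ± 0.56 (FDR 0.048), but not at UUO-2 (1.34 ± 0.56, FDR 0.094, or FDR 0.032 without R-UUO mouse 2) or UUO-7 (1.00 ± 0.55, FDR 0.14). The R-UUO call was lost when any 1 of 12 of the 16 mice was left out (all but R-UUO mice 1 and 2 and UUO-2 mice 1 and 3), with the lowest value, 0.80 (FDR 0.25), without R-UUO mouse 5. It was also lost under library size scaling, with only the 2 groups compared, and with the replicate number as a block. Of the UUO-2 mice, mouse 1 had the highest level in PT and PDGFRβ+ cells (131 and 63.2 CPM) and also the highest summed miR-126a there (1984 and 3524 CPM over all libraries, the other UUO-2 mice at most 869 and 2519 CPM). UUO-2 mouse 3, with that 2519 CPM in PDGFRβ+ cells, had the lowest mmu-miR-150-5p of its group there (16.2 CPM). Sham PDGFRβ+ libraries held 2041 to 2588 CPM of miR-126a and 9.64 to 21.9 CPM of mmu-miR-150-5p. The part of endothelial RNA in these levels was not tested.

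Of miR-342 in Macs, 1 arm was called lower at UUO-2 and neither arm was called at UUO-7 or in R-UUO. mmu-miR-342-3p in Macs was at 2073, 2643, 1984 and 1959 CPM in sham, 1589, 1589, 1462 and 1436 CPM at UUO-2, 3070, 2163, 2787 and 2579 CPM at UUO-7 and 2312, 2040, 2533 and 2329 CPM in R-UUO. Every UUO-2 library was below every sham library. The change at UUO-2 was -0.51 ± 0.13 (FDR 0.0053), under the fold threshold, and it passed when any 1 of 14 of the 16 mice was left out (all but UUO-2 mouse 4 and UUO-7 mouse 5), at -0.74 to -0.59. All 16 fits that left out a mouse gave -0.74 to -0.56, each a larger fall than in the full fit. The values at UUO-7 (0.29 ± 0.13, FDR 0.068) and in R-UUO (0.09 ± 0.13, FDR 0.62) were not called, beside a median of 0.22 over all loci in Macs at UUO-7. Leaving out a mouse gave 0.033 to 0.22 at UUO-7 and -0.10 to 0.046 in R-UUO, again all below the full fit.

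mmu-miR-342-5p in Macs was at 529, 813, 654 and 579 CPM in sham and at 372, 355, 416 and 397 CPM at UUO-2, again without overlap. It fell by 0.74 ± 0.25 on the log2 scale (FDR 0.032), or by 0.59 under library size scaling, where it was not called. It was at 763, 494, 768 and 693 CPM at UUO-7 and 421, 410, 607 and 1074 CPM in R-UUO, which overlapped the sham range (0.08 ± 0.25 and -0.04 ± 0.25, not called). From UUO-2 to UUO-7, 3 of the 4 members rose in Macs, mmu-miR-342-3p by 0.80 ± 0.13 (FDR 1.3e-04), mmu-miR-342-5p by 0.82 ± 0.25 (FDR 0.018) and mmu-miR-150-5p by 0.90 ± 0.33 (FDR 0.043), where 30.6% of loci were called. The last call was lost without any 1 of UUO-2 mice 1, 2 and 3 and UUO-7 mice 2 and 3 (0.78 to 0.90), and under library size scaling. With the replicate number as a block, the calls of mmu-miR-150-5p and mmu-miR-342-5p were both lost.

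In PT cells mmu-miR-342-3p rose at each time, and mmu-miR-342-5p at UUO-7 and in R-UUO. mmu-miR-342-3p in PT cells was at 11.9, 10.2, 8.12 and 13.4 CPM in sham, 33.5, 30.0, 21.2 and 29.8 CPM at UUO-2, 63.9, 68.4, 51.3 and 58.8 CPM at UUO-7 and 79.6, 44.0, 45.6 and 59.9 CPM in R-UUO. No injured library overlapped the sham libraries, and the UUO-7 libraries all lay above those at UUO-2. It rose by 1.38 ± 0.27 (FDR 0.0035), 2.47 ± 0.27 (FDR 6.8e-06) and 2.39 ± 0.27 (FDR 7.9e-06), and from UUO-2 to UUO-7 by 1.09 ± 0.24 (FDR 0.015), a step that was not called without UUO-2 mouse 3 (0.94, FDR 0.074) or mouse 4 (1.06, FDR 0.053). That step was also not called under library size scaling.

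mmu-miR-342-5p in PT cells was at 1.08, 5.11, 0.902 and 4.48 CPM in sham, 5.91, 5.45, 6.36 and 14.9 CPM at UUO-2, 20.6, 20.8, 19.6 and 22.9 CPM at UUO-7 and 30.0, 16.5, 14.7 and 35.7 CPM in R-UUO. Each injured library was above each sham library, though the sham level rests on 1, 4, 1 and 4 counts and the arm passed the low-count filter through the injured groups, so that it had to differ. It rose by 2.89 ± 0.51 at UUO-7 (FDR 3.5e-04) and 3.11 ± 0.51 in R-UUO (FDR 2.2e-04), while 1.51 ± 0.55 at UUO-2 was not called (FDR 0.061, or 0.049 without sham mouse 2).

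In PDGFRβ+ cells mmu-miR-342-3p rose at UUO-7 and in R-UUO, and mmu-miR-342-5p in R-UUO. mmu-miR-342-3p was at 28.6, 16.6, 20.0 and 21.7 CPM in sham and 35.2, 30.7, 12.5 and 27.8 CPM at UUO-2, which overlapped. It was at 65.6, 67.4 and 62.2 CPM in the 3 UUO-7 libraries and 91.8, 76.8, 67.9 and 75.7 CPM in R-UUO, all above sham. The changes were 0.28 ± 0.27 (FDR 0.59), 1.58 ± 0.29 (FDR 3.7e-04) and 1.84 ± 0.27 (FDR 6.0e-05), and 1.30 ± 0.29 from UUO-2 to UUO-7 (FDR 0.0025). Beside these, the median over all loci in PDGFRβ+ cells was 0.50 at UUO-7 and 0.40 in R-UUO.

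mmu-miR-342-5p in PDGFRβ+ cells was at 16.4, 22.7, 9.62 and 20.7 CPM in sham, 22.2, 16.2, 17.4 and 26.3 CPM at UUO-2, 19.9, 30.6 and 32.8 CPM at UUO-7 and 34.8, 29.2, 39.3 and 33.7 CPM in R-UUO. The R-UUO libraries lay above all sham libraries. It rose in R-UUO by 0.98 ± 0.27 (FDR 0.0093), while the 0.67 ± 0.29 at UUO-7 (FDR 0.068) was called without UUO-7 mouse 2 (0.86) or sham mouse 2 (0.81) and under library size scaling (1.23). mmu-miR-150-5p in PDGFRβ+ cells was at 21.9, 9.64, 13.9 and 17.5 CPM in sham, 63.2, 24.3, 16.2 and 17.4 CPM at UUO-2, 35.6, 23.4 and 21.6 CPM at UUO-7 and 19.9, 10.8, 21.0 and 14.8 CPM in R-UUO. It was not called at UUO-2 (0.93 ± 0.42, FDR 0.19), UUO-7 (0.77 ± 0.44, FDR 0.16) or in R-UUO (0.08 ± 0.41).

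In ECs, mmu-miR-342-3p was at 44.2, 46.6, 50.2 and 54.4 CPM in sham and 77.3, 86.7, 46.4 and 59.7 CPM at UUO-7, with UUO-7 mouse 4 within the sham range. The change was 0.47 ± 0.20 (FDR 0.12), and 0.72 (FDR 0.024) without that mouse. mmu-miR-342-5p in ECs ranged from 12.2 to 20.1 CPM in sham and 12.3 to 32.9 CPM at UUO-7 (0.45 ± 0.29, FDR 0.32).

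**Figure D3:**
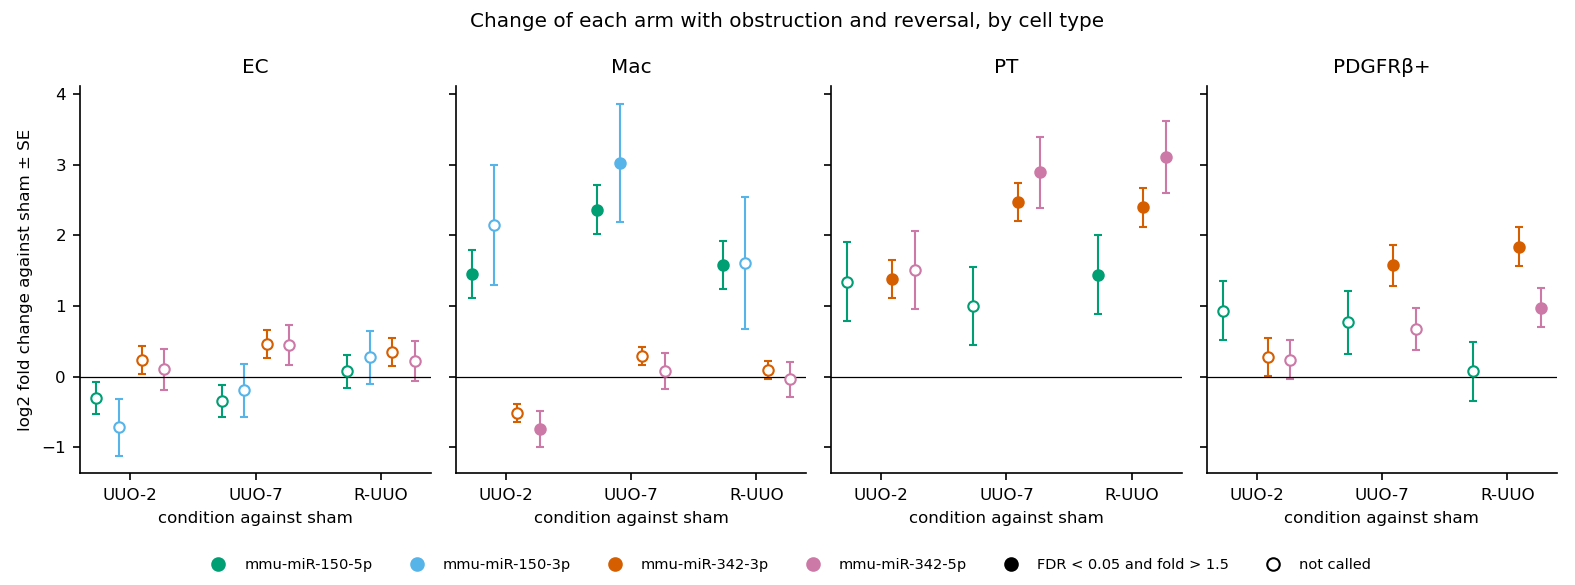
Log2 fold change of each member against sham, ± SE, at UUO-2, UUO-7 and R-UUO (x axis) in each sorted cell type (panels), with filled points where FDR was below 0.05 and the fold change above 1.5. miR-150 is called in Macs, up to 2.36 for mmu-miR-150-5p, which is also called in PT cells in R-UUO (1.45). miR-342 is called higher in PT cells and PDGFRβ+ cells, and mmu-miR-342-5p lower in Macs at UUO-2 (-0.74). No point is filled in ECs.

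Counted against sham over the 3 conditions, ECs had 0 of 12 calls, Macs 5 of 12, PT cells 6 of 9 and PDGFRβ+ cells 3 of 9. Without mmu-miR-150-3p in Macs and mmu-miR-342-5p in PT cells, which passed the low-count filter through the injured groups, Macs had 4 of 9 and PT cells 4 of 6. The counts for Macs and PT cells that follow include these arms. Of the EC tests, 1 had an unadjusted p under 0.05 and DESeq2 called 0. In ECs the background was 1.71% of loci called for UUO-2, 11.5% for UUO-7 and 16.8% for R-UUO. In Macs, 2 of 4 members were called at UUO-2 (all loci 27.6%), 2 of 4 at UUO-7 (43.1%) and 1 of 4 in R-UUO (31.9%). In PT cells, 1 of 3 was called at UUO-2 (19.1%), 2 of 3 at UUO-7 (43.0%) and 3 of 3 in R-UUO (38.8%). In PDGFRβ+ cells, 0 of 3 were called at UUO-2 (6.29%; edgeR gave 1 with an unadjusted p under 0.05 and DESeq2 called 0), 1 of 3 at UUO-7 (48.2%) and 2 of 3 in R-UUO (41.7%). From UUO-2 to UUO-7, the calls were 0 of 4 in ECs (1.92%, with none at an unadjusted p under 0.05 and 0 by DESeq2), 1 of 3 in PT cells (4.24%) and 1 of 3 in PDGFRβ+ cells (33.8%).

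Reversal of the obstruction was not followed by a called change in any member. From UUO-7 to R-UUO, edgeR called 0 of 14 tests and DESeq2 0, with 1 at an unadjusted p under 0.05, while the share of loci called was 1.07% for ECs, 19.9% for Macs, 1.52% for PT cells and 3.98% for PDGFRβ+ cells. The test with that p was mmu-miR-150-5p in Macs, with a change of -0.79 ± 0.33 (FDR 0.092). It was called without R-UUO mouse 5 (-1.15, FDR 0.0078) or UUO-7 mouse 5 (-0.95, FDR 0.047).

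Whether a change differed between populations was tested in 1 fit over all 63 libraries, at FDR below 0.05. For UUO-7 against sham, the change of mmu-miR-150-5p was smaller in ECs than in Macs, with an EC minus Mac difference of -2.67 ± 0.57 (FDR 3.3e-04) and the same direction in all 16 fits that left out a mouse. That of mmu-miR-150-3p was -3.26 ± 0.95 (FDR 0.012), which rests on sham Macs with 11, 0, 0 and 0 counts and became -6.82 without sham mouse 1, which is no bound. For miR-342 the EC minus Mac difference was 0.20 ± 0.28 for mmu-miR-342-3p (FDR 0.69) and 0.39 ± 0.39 for mmu-miR-342-5p (FDR 0.53), so that 2 of 4 members passed where 18.2% of loci did, or 1 of 3 without mmu-miR-150-3p.

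The change of mmu-miR-342-3p set PT cells apart from ECs and Macs instead. The values of mmu-miR-342-5p against PT cells rest on few counts in the sham PT libraries, also where they are counted as passing. EC minus PT was -2.23 ± 0.32 for mmu-miR-342-3p (FDR 3.4e-07) and -2.70 ± 0.52 for mmu-miR-342-5p (FDR 1.1e-04). Mac minus PT was -2.43 ± 0.32 (FDR 3.2e-08) and -3.08 ± 0.51 (FDR 3.6e-06). Of the 3 members tested against PT cells, 2 passed in each case (all loci 16.2% for ECs and 27.6% for Macs). For mmu-miR-342-3p, EC minus PDGFRβ+ was -1.25 ± 0.30 (FDR 8.6e-04) and Mac minus PDGFRβ+ was -1.46 ± 0.30 (FDR 1.4e-04), the 1 of 3 members that passed in each (27.9% and 20.4%). PT minus PDGFRβ+ was 2.30 ± 0.54 for mmu-miR-342-5p (FDR 6.3e-04) and 0.97 ± 0.33 for mmu-miR-342-3p (FDR 0.023), 2 of 3 members beside 27.6% of loci. The last call was lost with the mouse as a block (0.88, FDR 0.11), without sham mouse 1 (0.78, FDR 0.12) without UUO-7 mouse 5 (0.96, FDR 0.063), with DESeq2 (0.64) and under library size scaling (0.064). Library size scaling also ended that of mmu-miR-342-5p (1.36, FDR 0.065).

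The differences for mmu-miR-150-5p that did not pass were -1.56 ± 0.60 for EC minus PT (FDR 0.063), -1.27 ± 0.60 for EC minus PDGFRβ+ (FDR 0.12), 1.11 ± 0.60 for Mac minus PT (FDR 0.18) and 1.40 ± 0.61 for Mac minus PDGFRβ+ (FDR 0.10). The rise in Macs was thus told apart from the change in ECs by edgeR, while DESeq2 also passed Mac minus PT (1.70, FDR 0.020) and Mac minus PDGFRβ+ (1.66, FDR 0.037). At UUO-2 and in R-UUO the EC minus Mac difference of mmu-miR-150-5p was -1.69 ± 0.56 (FDR 0.056) and -1.53 ± 0.56 (FDR 0.058). These passed with the mouse as a block (-1.75, FDR 0.0023, and -1.27, FDR 0.023). edgeR called 0 of 8 member tests in these contrasts, 5 had an unadjusted p under 0.05 and DESeq2 called 3, while 6.71% and 13.7% of all loci passed.

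The ratio of mmu-miR-150-5p to mmu-miR-342-3p moved between sham and UUO-7 in each population without overlap of the libraries. It was higher at UUO-7 in Macs, by a log2 of 2.07, and lower in ECs (-0.79), PT cells (-1.48) and PDGFRβ+ cells (-0.81). Each gave p = 0.0286 by the exact 2-sided permutation test, the smallest that 4 against 4 or 3 against 4 mice can give, and p = 0.0686 adjusted over 12 tests, which does not pass.

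Marker miRNAs of other cells were set beside the members on the scale over all libraries. In Macs the mean of mmu-miR-150-5p was 3.97% of the EC mean in sham and 25.2% at UUO-7, while that of miR-126a-5p was 1.08% and 0.521%. The summed miR-126a in Macs ranged from 322 to 3387 CPM in sham and 605 to 938 CPM at UUO-7. At sham, UUO-2 and UUO-7, the 3 erythroid arms (miR-451a and miR-144) summed to means of 1.35, 8.42 and 3.00 CPM in Macs. The leukocyte arms summed to means of 39493, 27665 and 19418 CPM there. The part of endothelial, red cell or lymphocyte RNA in the rise was not tested, and no sorted lymphocyte reference was measured.

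In PT cells the mean of mmu-miR-342-3p was 0.664% of the Mac mean in sham and 3.57% at UUO-7, that of mmu-miR-342-5p 0.596% and 4.83%, that of miR-142a-5p 0.219% and 1.04%, and that of miR-223-3p 0.233% and 0.740%. The 5 leukocyte arms summed to 83.2 to 113 CPM in sham PT cells (3 of 5 seen in every library) and 171 to 295 CPM at UUO-7 (4 of 5). In PDGFRβ+ cells, mmu-miR-342-3p went from 2.01% to 5.54% of the Mac mean, beside 0.196% to 1.95% for miR-142a-5p and 0.743% to 5.59% for miR-223-3p, and the leukocyte arms summed to 55.9 to 177 CPM in sham and 406 to 874 CPM at UUO-7. The 5 mesenchymal marker arms (miR-199a, miR-214, miR-143 and miR-145a) in PT cells summed to 1617 to 3496 CPM in sham and 7030 to 18214 CPM at UUO-7, while the 8 epithelial arms went from 105655 to 135899 CPM down to 43483 to 62089 CPM. PT cells of R-UUO mouse 1 stood apart at 25839 CPM mesenchymal (the other R-UUO mice at most 5842) and 24830 CPM epithelial (the others at least 41726), and had the highest R-UUO level of mmu-miR-342-3p in PT cells. Without that mouse the R-UUO change in PT cells was 2.23 for mmu-miR-342-3p (FDR 1.1e-05) and 3.05 for mmu-miR-342-5p (FDR 5.1e-04). From sham to UUO-7, leukocyte markers thus rose with mmu-miR-342-3p in both populations, and mesenchymal markers in PT cells. In PDGFRβ+ cells the leukocyte arms summed to 321 to 370 CPM at UUO-2, where mmu-miR-342-3p was not called (0.28 ± 0.27, FDR 0.59). They summed to 218 to 308 CPM in R-UUO, below UUO-7, while mmu-miR-342-3p changed by 0.26 ± 0.29 from UUO-7 (FDR 0.68). The part of these markers in the change of miR-342 was not tested. In PDGFRβ+ cells at UUO-7 the shares of the other leukocyte arms were 7.25% for miR-142a-3p, 0.667% for miR-223-5p and 79.1% for miR-155-5p, on both sides of that of mmu-miR-342-3p. In PT cells they were at most 1.24% in any condition for miR-142a-3p and miR-223-5p and 16.4% to 47.0% for miR-155-5p. In ECs the share of mmu-miR-342-3p was 5.64% in sham and 6.49% at UUO-7, while that of miR-142a-5p was 0.0926% and 0.844%.

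**Figure D4:**
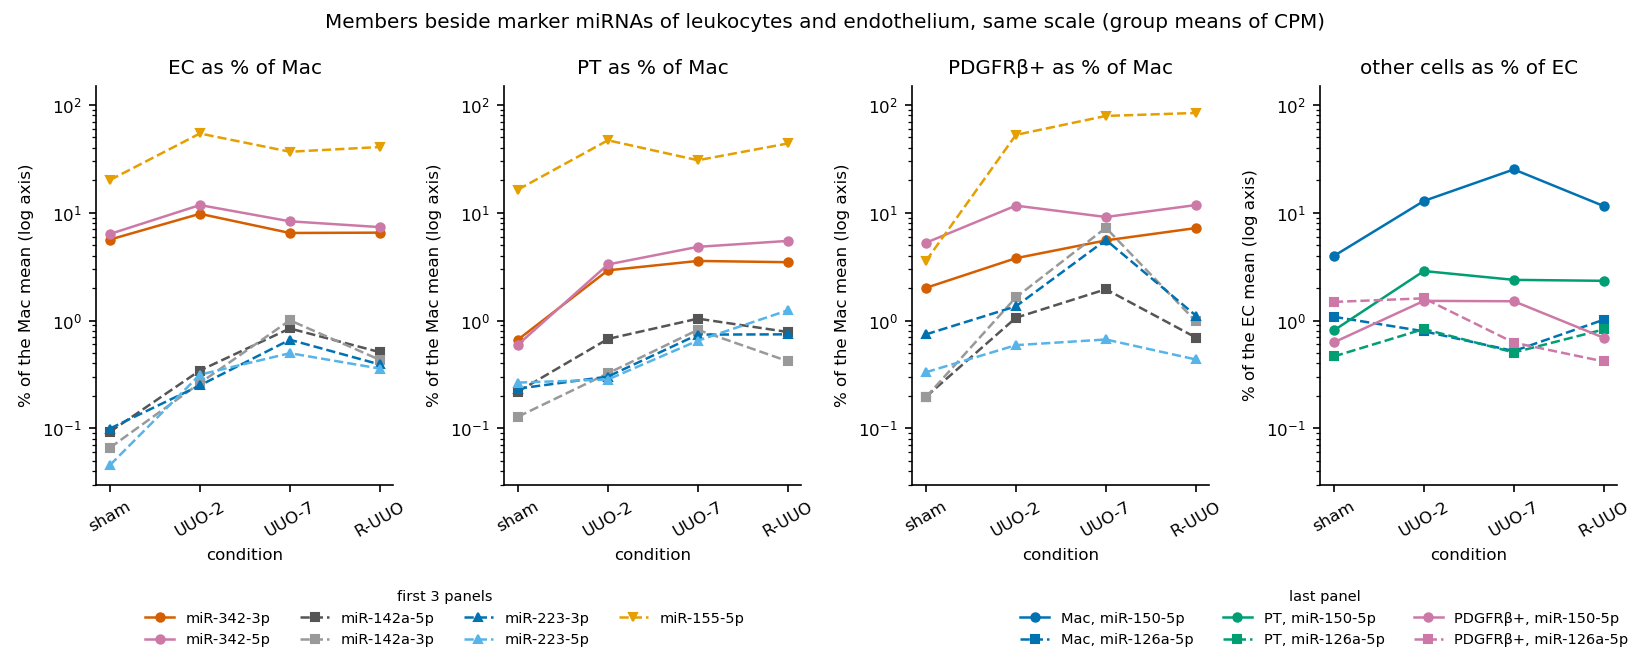
Group means of the members (solid lines) and of marker miRNAs (dashed lines) as a percent of the Mac mean in the first 3 panels and of the EC mean in the last, on log axes, by condition. In the last panel mmu-miR-150-5p in Macs goes from 3.97% of the EC mean in sham to 25.2% at UUO-7 while miR-126a-5p goes from 1.08% to 0.521%.

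A list of 13 miRNAs known from blood cells was followed beside the members. It holds miR-142a and miR-223 of leukocytes, miR-155, miR-146a, miR-146b and miR-181 of immune activation and lymphoid cells, miR-128, and miR-451a and miR-144 of red cells. Against the mean of the other populations, 9 of 13 were called higher and 0 lower in Macs, beside 204 and 180 of all 671 loci. In ECs 3 of 13 were called higher and 6 lower, beside 178 and 174 of all 671 loci. At UUO-7, 7 of 9 tested rose and 0 fell in ECs, where 29 of all 469 loci rose and 25 fell, with a median log2 change of 1.37 beside -0.05 over all loci. In PDGFRβ+ cells 8 of 9 rose, beside 162 of 477 loci (median 2.22, all loci 0.50). In PT cells 3 of 8 rose and 1 fell, beside 84 and 58 of 330 loci (0.56, all loci 0.00). In Macs 4 of 11 rose and 3 fell, beside 120 and 77 of 457 loci (0.26, all loci 0.22), so that the Mac median lay near that of all loci. Among them, miR-142a-5p changed in Macs by -0.93 ± 0.13 (FDR 2.2e-05) and in ECs by 2.22 ± 0.31 (FDR 1.2e-04), and miR-155-5p, induced in activated leukocytes, rose in Macs by 1.29 ± 0.29 (FDR 0.0013) and in PDGFRβ+ cells by 5.63 ± 0.53 (FDR 6.6e-07).

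Over the 63 libraries, which share mice and scaling, the loci with the most similar pattern to mmu-miR-150-5p by Pearson correlation of log2 CPM were miR-139-5p (0.87), miR-1941-5p (0.84) and miR-126a-5p (0.82), and the same 3 led for mmu-miR-150-3p (0.88, 0.84 and 0.83). All 3 were highest in ECs, with miR-126a-5p at a mean of 120265 CPM there. For mmu-miR-342-3p they were miR-130b-3p (0.93), miR-146a-5p (0.92) and miR-15b-5p (0.91). For mmu-miR-342-5p they were miR-130b-5p (0.91), miR-130b-3p (0.90) and miR-350-3p (0.89), all highest in Macs. The arms of miR-342 correlated with each other at 0.96 and those of miR-150 at 0.94, while mmu-miR-150-5p and mmu-miR-342-3p correlated at 0.36.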

How the data were processed

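Small RNA of the sorted cells was sequenced as paired-end 150 base reads. Per the paper's methods and the submitters' processing notes, the authors used Trim Galore 0.4.1 and cutadapt 1.1 for trimming and ShortStack, with GRCm38 and miRBase, for alignment. The deposited values are raw counts per locus, without normalization. The use of strand and the placing of multi-mapping reads are not given in the sources used here.

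Counts were analysed with edgeR 4.0.16, limma 3.58.1 and DESeq2 1.42.0 in R 4.3.3, with filterByExpr, TMM scaling and Benjamini-Hochberg adjustment over all loci tested (671 over all libraries, and 469, 457, 330 and 477 within ECs, Macs, PT and PDGFRβ+ cells). Cell types and differences of changes were fitted over 63 libraries, and conditions within a cell type. Ratios used log2 counts with a pseudocount of 0.5. Fits were tested on simulated counts, drawn with 1 spread for all loci and independent libraries. There edgeR recovered 55% to 70.7% of 2-fold changes and 98% to 100% of 4-fold changes at UUO-7 within a cell type. For the EC minus Mac difference it recovered 27% of 2-fold and 90% of 4-fold differences, so that small differences can be missed.

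The named miRNAs are the 4 members, the marker and blood-cell lists, and the 3 loci most correlated with each member. Members and lists were chosen with earlier results of these data known.

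Populations of 1 mouse share an animal and so are paired (deviations from group means correlated at a median of 0.05 over 93 pairs). The same number in another condition is another mouse. P-values of the ratio tests and of the fits within a cell type measure the spread between mice. The main fit over 63 libraries had no term for the mouse. Its p-values take the populations of 1 mouse as independent and measure the spread between libraries. Alternatives were DESeq2, library size only, no filter, only the compared groups, a replicate block, another pseudocount, Spearman correlation and each mouse left out.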

Additional observations from a re-analysis of the deposited data

Results flagged for a closer look

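Among 53 groups of 4 libraries, 5 held a library far from the others by Dixon's criterion, where chance flags about 1 in 20 groups. In CPM scaled within a cell type, mmu-miR-150-5p was at 786 in the ECs of UUO-2 mouse 1 (others 1866 to 1962) and at 63.2 in the PDGFRβ+ cells of the same mouse (others 16.2 to 24.3). mmu-miR-342-3p was at 2643 in the Macs of sham mouse 2 (others 1959 to 2073), mmu-miR-342-5p at 14.9 in the PT cells of UUO-2 mouse 4 (others 5.45 to 6.36), and mmu-miR-150-3p at 1.86 in the Macs of sham mouse 1 (the others at 0).

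The change from sham to UUO-7 differed between populations in 10 of 27 tests of a difference (9 of 24 without mmu-miR-150-3p, whose sham Macs held 11, 0, 0 and 0 counts), in the edgeR fit of the 63 libraries. These were mmu-miR-150-5p (-2.67) and mmu-miR-150-3p (-3.26) for EC minus Mac, mmu-miR-342-3p (-2.23) and mmu-miR-342-5p (-2.70) for EC minus PT, mmu-miR-342-3p (-2.43) and mmu-miR-342-5p (-3.08) for Mac minus PT, mmu-miR-342-3p for EC minus PDGFRβ+ (-1.25) and Mac minus PDGFRβ+ (-1.46), and mmu-miR-342-3p (0.97) and mmu-miR-342-5p (2.30) for PT minus PDGFRβ+, all as log2. The values of mmu-miR-342-5p that involve PT cells rest on few counts in the sham PT libraries.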

How the results depend on the processing

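Of 112 tested values, 67 were called, and no alternative run reversed a called value; 56 kept their call under all alternatives run for them and 11 lost it under some. Library size scaling moved the median of all loci by up to -1.27 (EC minus Mac) and 0.96 (Mac minus PDGFRβ+). The cause of the following changes was not tested. Under library size only, mmu-miR-342-3p in ECs against the rest (-1.27), mmu-miR-342-5p in PDGFRβ+ cells against the rest (-0.98), and mmu-miR-150-5p (1.27) and mmu-miR-342-5p (1.23) at UUO-7 in PDGFRβ+ cells were called, while uncalled values changed sign for mmu-miR-150-3p (-0.11), mmu-miR-150-5p (-0.26) and mmu-miR-342-5p (-0.14) in R-UUO ECs, mmu-miR-342-3p in R-UUO Macs (-0.021) and its EC minus Mac difference (-0.10). With DESeq2, mmu-miR-342-5p in PDGFRβ+ cells against the rest was called (-0.67), and mmu-miR-150-5p in R-UUO PDGFRβ+ cells (-0.10), mmu-miR-342-5p for EC minus PDGFRβ+ (0.025) and the EC minus Mac difference of mmu-miR-342-3p (-0.030) changed sign. Without the filter or with only the 2 groups, mmu-miR-150-5p at UUO-7 in PT cells was called (1.08 and 0.97) and mmu-miR-342-5p at UUO-7 in Macs changed sign (-0.053 and -0.062), as did mmu-miR-342-3p in R-UUO Macs without the filter (-0.13).

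Numbers do not pair mice between conditions: 0 of 24 group pairs had every same-number correlation above 0.1, and in 19 of 74 same-number pairs the same-numbered library was the best match. With the replicate number as a block, mmu-miR-150-3p at UUO-7 in ECs (0.018) and mmu-miR-342-5p at UUO-7 in Macs (-0.13) changed sign, and 3 of 48 values lost their call. The mouse as a block moved 3 of 49 calls, given in the report.

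Leaving out each mouse gave, at UUO-7 against sham, -0.28 to 0.059 for mmu-miR-150-3p and 0.35 to 0.72 for mmu-miR-342-3p in ECs, -0.17 to 0.040 for mmu-miR-342-5p in Macs and 0.45 to 0.86 in PDGFRβ+ cells. The EC minus Mac difference ran from -0.26 to 0.34 for mmu-miR-342-3p and -0.22 to 0.63 for mmu-miR-342-5p. mmu-miR-342-5p against the rest ran from -0.81 to -0.56 in ECs and -0.65 to -0.51 in PDGFRβ+ cells, and EC minus PDGFRβ+ from -0.16 to 0.043. The arm ratio of miR-150, EC minus Mac, ran from -0.066 to 0.32, mmu-miR-150-5p in R-UUO PDGFRβ+ cells from -0.12 to 0.26, mmu-miR-342-3p in R-UUO Macs from -0.10 to 0.046 and mmu-miR-342-5p at UUO-2 in ECs from -0.011 to 0.31. In Macs against sham, the full fit of mmu-miR-342-3p lay above all 16 of these values at UUO-2, UUO-7 and in R-UUO. The same held for mmu-miR-342-5p and mmu-miR-150-5p at UUO-2 and UUO-7, and the cause was not tested. Of the 12 closest loci, 5 left the first 3 under Spearman and 4 under library size scaling. Depth limits mmu-miR-150-3p most.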
